A study of Homo sapiens with 3 samples.

Results

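A set of 10 imprinted genes was chosen by name from 26485 gene names, with the antisense RNA KCNQ1OT1 read against KCNQ1 and CDKN1C of its own cluster. All 10 names were present in the count tables of 3 libraries of HEK293, an established human line of embryonic kidney origin transformed with adenovirus DNA. The cells were kept in serum-containing DMEM, and the series holds this single condition in triplicate (n = 3), so there were no groups to set against each other. According to the protocols a Ribo-Zero kit removed ribosomal RNA from total RNA and the library kit (NEBNext Ultra Directional) kept the strand, whereas the sample titles speak of mRNA sequencing. Whether the replicates were separate cultures is not stated, so spreads and p-values describe these 3 samples and may be technical.

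An imprinted gene is read mainly from the copy inherited from 1 parent, and imprinted genes lie in clusters governed by a control region that is methylated on 1 parental copy. KCNQ1OT1 is a long, unspliced RNA made from the paternal copy; its start lies in an intron of KCNQ1, within the control region of the cluster, and its transcription is known to keep neighbours such as CDKN1C silent on that copy. The neighbouring IGF2 and H19 share a second control region, which binds the insulator protein CTCF and leaves IGF2 active on the paternal and H19 on the maternal copy. Established lines can gain or lose such parental marks, and gene-level counts do not tell the parental copies apart.

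The stretch where KCNQ1OT1 and KCNQ1 share exonic bases on opposite strands is shown because reads from it cannot be assigned without the strand. On GRCh38, KCNQ1OT1 is a single exon of 91667 bases on the minus strand of chromosome 11, from 2608328 to 2699994, and lies wholly within the body of KCNQ1, which runs on the plus strand from 2444684 to 2849110. The shared part, chr11:2661961-2662081, is 121 bases long and is a coding exon in 3 of the 7 annotated KCNQ1 transcripts. It makes up 0.132% of KCNQ1OT1 and 2.72% of the merged exons of KCNQ1. Read 5′ to 3′ along KCNQ1OT1 (bases 37914 to 38034 of its GENCODE transcript), with 20 flanking bases on each side in lower case and the shared bases in capitals, and then along KCNQ1, the sequences are:
KCNQ1OT1: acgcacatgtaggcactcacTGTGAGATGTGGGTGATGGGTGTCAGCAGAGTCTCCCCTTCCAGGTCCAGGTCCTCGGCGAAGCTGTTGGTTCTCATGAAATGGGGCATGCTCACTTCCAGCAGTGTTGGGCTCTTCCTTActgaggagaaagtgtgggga
KCNQ1: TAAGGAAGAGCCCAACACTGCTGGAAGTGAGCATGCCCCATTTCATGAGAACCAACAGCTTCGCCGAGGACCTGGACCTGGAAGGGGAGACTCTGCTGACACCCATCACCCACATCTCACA
Were the counts of KCNQ1OT1 spread evenly along it, this stretch would hold 1.51, 1.99 and 0.789 of them in replicates 1, 2 and 3. The rest of KCNQ1OT1 lies opposite introns of KCNQ1. None of the sources used here gives the strand setting of HTSeq, so counts under either name cannot be told apart from reads of the other strand, unspliced KCNQ1 RNA included, and every level below is a level of counts under a name.

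Gene-assigned totals were 412066, 483114 and 289241 counts in replicates 1, 2 and 3. They made up 2.02% ± 0.396 (SD, n = 3) of all records, while 91.2% ± 0.472 (SD, n = 3) fell in no annotated feature. Whether the strand setting had a part in that share was not tested. An absent count sets an upper limit of 6.86, 6.92 and 9.89 CPM (counts per 1000000 of the effective library size), worth 3 counts in replicates 1, 2 and 3. Replicate 2 stood apart from the others: the common biological coefficient of variation over all genes was 0.276 with it and 0.178 without it. Intervals and floors below cover counting error alone. They bound counts under a name, and with the strand setting not given they do not bound the RNA of that gene.

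KCNQ1OT1 held nearly all raw counts of the set. This lead was known when the 10 genes were chosen, and the values here are not corrected for its 91.67 kb of exon. KCNQ1OT1 received 1140, 1508 and 598 counts in replicates 1, 2 and 3, or 2606, 3476 and 1971 CPM, with exact 95% Poisson intervals of 2457 to 2762, 3303 to 3656 and 1816 to 2135 CPM. Replicate 2 was highest and replicate 3 lowest, and these intervals did not overlap. It was 96.4%, 96.5% and 97.9% of the counts of the 10 genes, and the 29th, 16th and 47th highest of all names in replicates 1, 2 and 3. As a share of all gene-assigned counts it was 0.277%, 0.312% and 0.207% (exact 95% binomial intervals 0.261% to 0.293%, 0.297% to 0.328% and 0.191% to 0.224%).

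KCNQ1, the pore-forming subunit of a voltage-gated potassium channel of heart and epithelia, received 38, 36 and 11 counts in replicates 1, 2 and 3, or 86.9, 83.0 and 36.3 CPM. Replicate 3 was the lowest, with an interval of 18.1 to 64.9 CPM that overlapped that of replicate 1 (61.5 to 119 CPM) at its edge. CDKN1C, an inhibitor of cyclin-dependent kinases on the minus strand from 2883213 to 2885773, had no count in any library. It lies 183 kb beyond the start of KCNQ1OT1 on the plus-strand side, and KCNQ1 ends 34.1 kb before it.

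**Figure D1:**
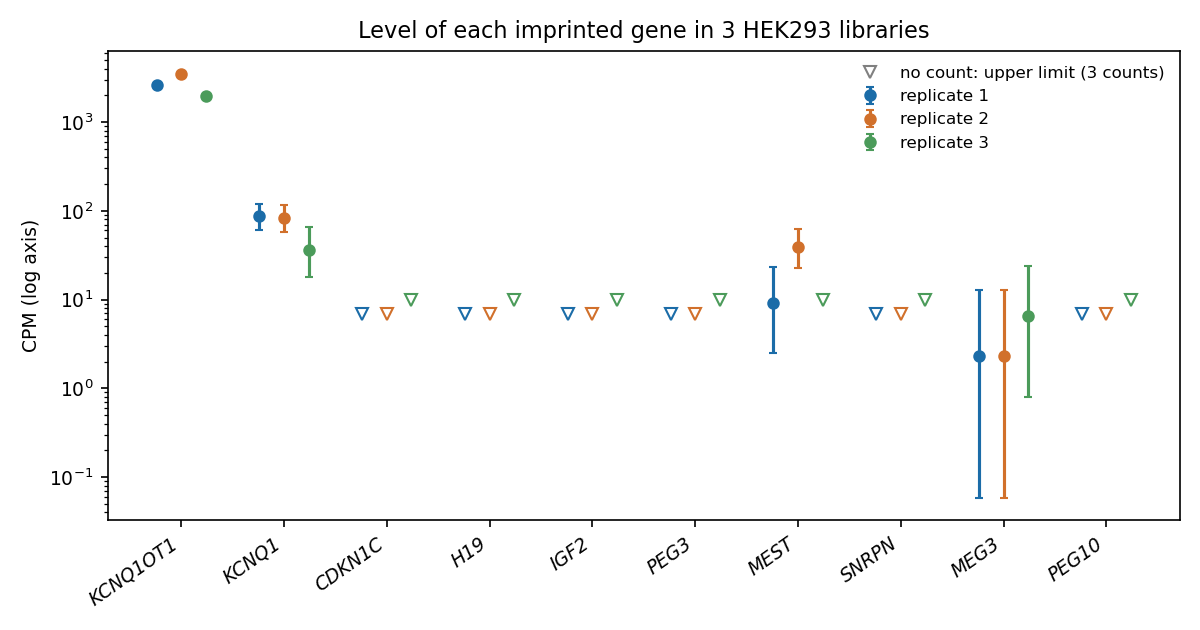
Level of each of the 10 genes in the 3 libraries, in CPM on a log axis, where points carry exact 95% Poisson intervals and open triangles mark the 3-count limit of a library without a count. KCNQ1OT1 lies between 1971 and 3476 CPM, KCNQ1 between 36.3 and 86.9 CPM, and 6 genes have triangles only.

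Set beside KCNQ1 in raw counts, KCNQ1OT1 was 30-fold, 41.9-fold and 54.4-fold higher in replicates 1, 2 and 3. The exact 95% intervals of these ratios, from the binomial share of the pair, ran from 21.7 to 42.6, from 30.1 to 60.0 and from 30.2 to 109.5. The merged exons of KCNQ1OT1 cover 91.7 kb and those of KCNQ1 4.447 kb, so raw counts do not compare their levels. Per kilobase of exon KCNQ1OT1 had 28.4, 37.9 and 21.5 CPM and KCNQ1 had 19.5, 18.7 and 8.15 CPM in the same libraries.

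On the per-kilobase scale KCNQ1OT1 exceeded KCNQ1 by 1.46-fold, 2.03-fold and 2.64-fold in replicates 1, 2 and 3, with 95% intervals of 1.05 to 2.07, 1.46 to 2.91 and 1.46 to 5.31. The log2 ratio was 0.99 ± 0.43 (SD, n = 3), and it was 0.53 ± 0.43 (SD, n = 3) when each gene was divided by its longest transcript instead. The folds and intervals above hold for merged exon length alone. The order was the same in every library, but the smallest p of an exact two-sided sign-flip permutation test over 3 libraries is 0.25, and no call was made. CDKN1C could be compared only through its limit: per kilobase, KCNQ1OT1 was at least 10.3-fold, 13.6-fold and 5.39-fold higher than 3 counts of CDKN1C in replicates 1, 2 and 3. That bound holds for counts under these names alone.

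KCNQ1OT1 ranked lower among all names per kilobase than by CPM. Its mean of 29.3 ± 8.24 CPM per kilobase (SD, n = 3) lay at percentile 91.7 of the 13197 annotated names with a count, whereas its CPM lay at percentile 99.8 of all 14482 names with a count. KCNQ1, at 15.4 ± 6.33 CPM per kilobase (SD, n = 3), lay at percentile 86.1. Of 1906 names with at least 10 kb of exon KCNQ1OT1 ranked 5th by CPM, behind TSIX, TTN, HBS1L and NR2C2, and 32nd per kilobase. TSIX had 168339, 317350 and 162814 CPM in replicates 1, 2 and 3, and its exons overlap those of XIST on the other strand. Exons of TTN and NR2C2 also overlap exons on the other strand, and those of HBS1L do not. Whether counts under these names came from the other strand was not tested. Only TTN, which encodes titin of muscle, had a longer annotated exon length among the names in the tables with at least 50 kb: it had 76.2 ± 22.6 CPM per kilobase (SD, n = 3) over 119 kb.

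A closer class was the 469 names that, like KCNQ1OT1, are a single exon with at least 90% of its bases inside the body of an opposite-strand gene and under 10% over that strand's exons, a class defined after the values were seen. A count was seen in 115 of these, and 24 reached 10 counts in all 3 libraries. Of all names 54.7% and 9.68% did so. KCNQ1OT1 had the highest CPM of them and ranked 28th per kilobase, where the class median was 0 and its 90th percentile 15.5 CPM per kilobase.

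**Figure D2:**
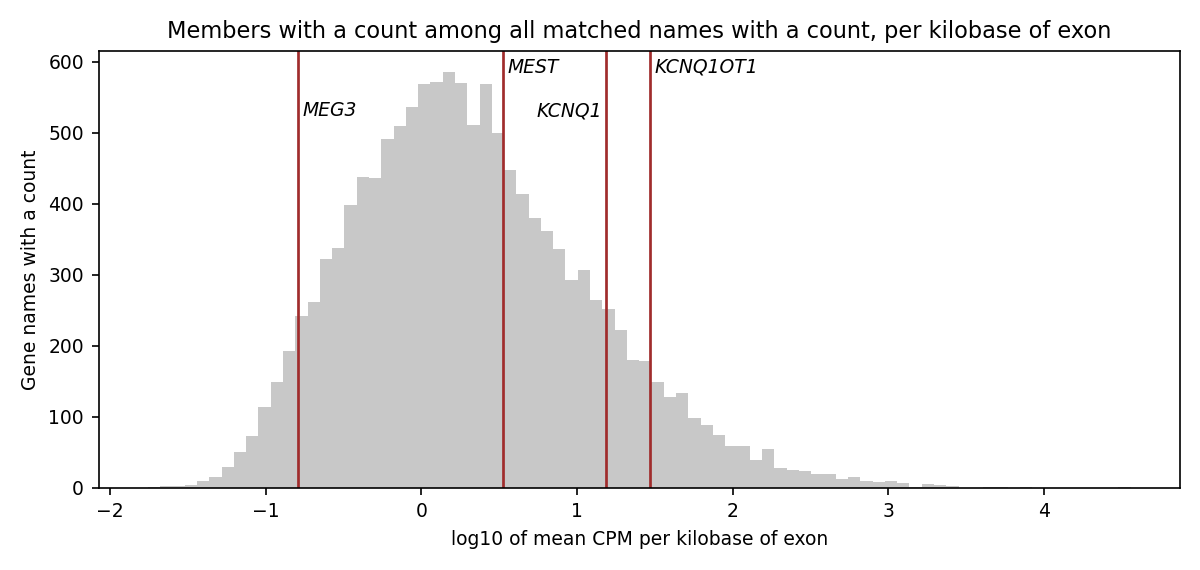
Distribution of the mean CPM per kilobase of exon on a log10 axis over the 13197 annotated names with a count, with red lines at the 4 imprinted genes that had one. KCNQ1OT1 at 29.3 and KCNQ1 at 15.4 CPM per kilobase lie close to each other in the upper part, while MEST at 3.36 lies nearer the middle and MEG3 at 0.161 in the lower tail.

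H19, IGF2, PEG3, SNRPN and PEG10, like CDKN1C, had no count in any library. H19, the maternal non-coding RNA that hosts MIR675, lies on the minus strand of chromosome 11 from 1995176 to 2001470. IGF2, the fetal growth factor, lies from 2129112 to 2149603 on the same strand. PEG3, a paternally expressed zinc finger gene, lies on chromosome 19 from 56810077 to 56840728. SNRPN, which encodes a protein of the Sm family that binds spliceosomal RNAs, lies on chromosome 15 from 24823637 to 24978723, and PEG10, a gene derived from a retrotransposon, on chromosome 7 from 94656325 to 94669695.

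The zeros can be set against exon length. At the per-kilobase density of KCNQ1OT1, CDKN1C with 2.478 kb of exon would have had 30.8, 40.8 and 16.2 counts in replicates 1, 2 and 3, H19 36.0, 47.7 and 18.9, and PEG3 with 9.769 kb 121.5, 160.7 and 63.7. The limit that no count allowed for H19 was 2.37, 2.39 and 3.41 CPM per kilobase, and for PEG3 it was 0.702, 0.708 and 1.01. On the same strand 1264 bases of PEG3 exon are shared with ZIM2, 814 of SNRPN with SNURF and 1460 of IGF2 with INS-IGF2. A larger stretch of IGF2, 5144 bases or 73.7% of its merged exons, is shared with a second annotation record that also carries the symbol IGF2. The HTSeq mode is not given, and the part of this overlap in the zeros was not tested. ZIM2, SNURF and INS-IGF2 had no count either, and reads called ambiguous were 0.0184% of all records (mean of 3 libraries).

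MEST and MEG3 were the only other genes of the set with counts. MEST, a paternally expressed gene of the hydrolase fold on chromosome 7 from 130486171 to 130506465, received 4, 17 and 0 counts in replicates 1, 2 and 3. These were 9.14 and 39.2 CPM in replicates 1 and 2 and at most 9.89 CPM in replicate 3, so replicate 2 stood above the other 2, and its interval of 22.8 to 62.7 CPM overlapped that of replicate 1, 2.49 to 23.4 CPM, at its edge. MEG3, the maternal non-coding RNA of the chromosome 14 cluster from 100779410 to 100861031, received 1, 1 and 2 counts, under the 3-count limit in every library. Its 23.2 kb of exon would have held 289, 382 and 151.5 counts at the density of KCNQ1OT1.

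In all, 4 of the 10 genes had a count in at least 1 library against 54.7% of all names, 3 had a count in every library against 29.2%, and 2 reached 10 counts in all 3 libraries against 9.68%. The median CPM of the 10 was 0, against 1.10 over all names. With 10 genes, and chosen with values known, these counts describe the set alone.

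Replicates were compared with edgeR's Poisson fit, which asks whether the libraries differ by more than counting noise and was adjusted by Benjamini and Hochberg's method over 2564 genes. Only KCNQ1OT1 and KCNQ1 passed the filter of 10 counts in every library, and both passed the test, where 45.8% of all tested genes did. KCNQ1OT1 averaged 2684 ± 755.6 CPM (SD, n = 3), with an adjusted p of 3.30e-32 in edgeR's fit, and 3.44e-06 without replicate 2. KCNQ1 averaged 68.7 ± 28.2 CPM (SD, n = 3), with an adjusted p of 0.0332 in edgeR's fit. That call was lost without replicate 2 at an adjusted p of 0.0599 and without replicate 3 at 0.965, both in edgeR's fit. Against edgeR's common dispersion of the same libraries, in place of counting noise alone, the adjusted p of KCNQ1OT1 was 0.988. No gene of the 2564 passed there. That dispersion was estimated from these same libraries, so this setting cannot show whether KCNQ1OT1 in particular varied.

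Over the 11p15 region that holds both control regions, from MRPL23 to OSBPL5, the tables name 31 genes, of which 10 had a count. Of all names 54.7% had one. KCNQ1OT1 took 91.7%, 96.2% and 95.1% of the 1243, 1568 and 629 counts there in replicates 1, 2 and 3. After KCNQ1 the next by mean CPM was CD81-AS1, opposite the tetraspanin gene CD81, with 42, 15 and 10 counts against 1, 0 and 0 for CD81. These raw counts are not corrected for exon length. Per kilobase of exon CD81-AS1 had a mean of 35.35 CPM, above KCNQ1OT1 at 29.28, and every other name of the region lay below KCNQ1OT1. MRPL23-AS1, opposite the mitochondrial ribosomal protein gene MRPL23 beside H19, had 14, 4 and 6 counts against none for MRPL23. In the KCNQ1 domain list 7 of 13 genes, or 53.85%, had a count, near the share of all names. The 6 without one included PHLDA2, a growth-restraining gene that is maternally expressed, and the transporter gene SLC22A18. TRPM5, a cation channel gene, had 3, 3 and 4 counts. Outside KCNQ1OT1, KCNQ1, CD81-AS1 and MRPL23-AS1, no name of the region had more than 4 counts in a library.

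**Figure D3:**
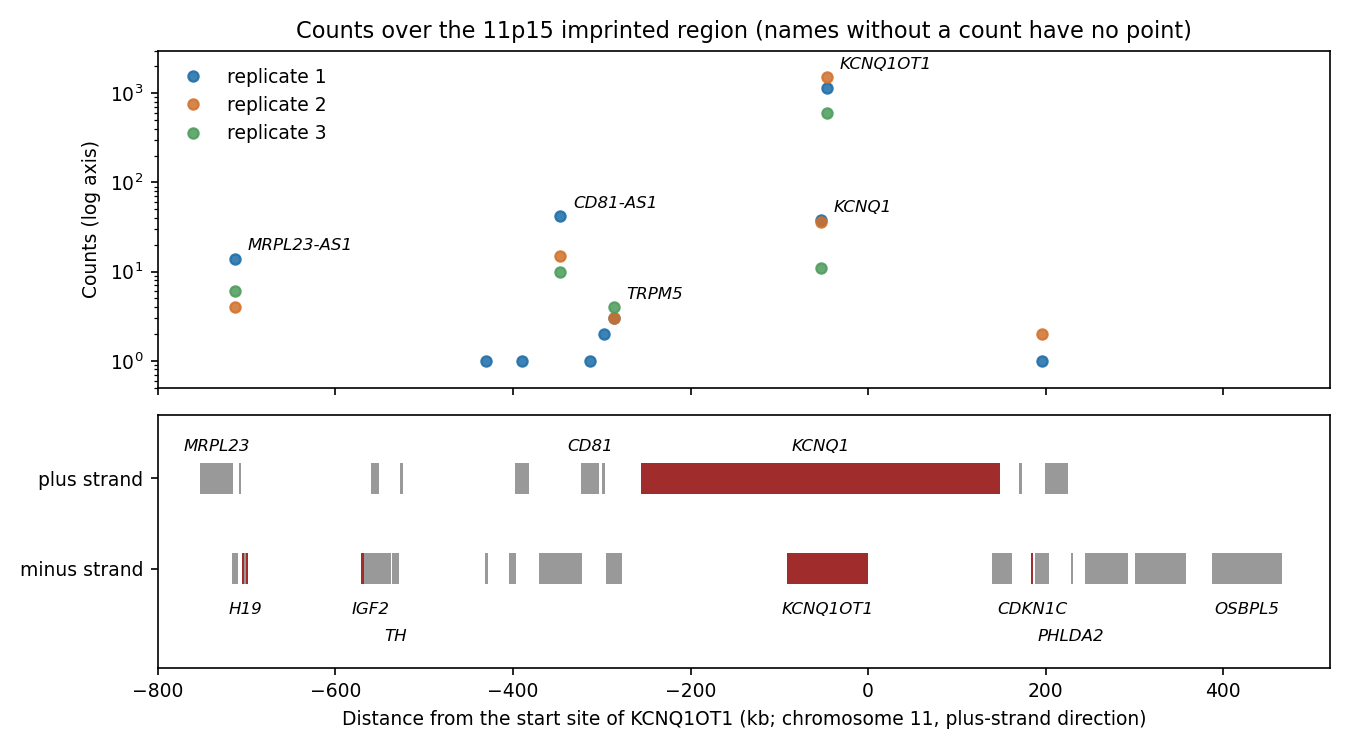
Counts of each name in the 3 libraries (upper panel, log axis, no point where a library had no count) above a map of the 31 names by strand (lower panel, members in red), both by distance in kb from the start site of KCNQ1OT1. In raw counts KCNQ1OT1 lies above every other name in all 3 libraries, and no point stands over H19, IGF2 or CDKN1C. Per kilobase of exon the mean of CD81-AS1 was higher, at 35.35 CPM against 29.28 for KCNQ1OT1.

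The same uncertainty of strand holds for the other genes, whether or not their exons overlap. CDKN1C, PEG3 and SNRPN overlap no annotated exon on the other strand. Exons of 7 of the 10 genes overlap exons of an annotated gene on the other strand, against 31.6% of annotated names; for 5 of the 7 the partner is a name in the tables. KCNQ1OT1 also lies over 4 short Rfam entries on the other strand, which are not names in the tables. The overlap of H19 is with such entries alone, over 69 and 71 bases. Of the merged exons of MEST, 484 bases lie over MESTIT1, which had 1, 0 and 0 counts, and 228 over COPG2, a coatomer subunit gene with 0, 1 and 0 counts. PEG10 shares 219 bases with SGCE, the epsilon-sarcoglycan gene, which had 0, 2 and 1 counts, and IGF2 shares 333 bases with IGF2-AS, which had none. KCNQ1-AS1, at the far end of KCNQ1, had none.

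Opposite-strand pairs were then listed for 81 imprinted or neighbouring genes, and 27 pairs had both names in the tables. The higher name of a pair was the one with the larger mean CPM in these same libraries. In 12 pairs the same name was higher in every library, in 5 neither had a count, and in 9 the higher name reached 10 counts in all 3 libraries. KCNQ1OT1 and KCNQ1 were the only pair in which both did. AIRN, the RNA antisense to the receptor gene IGF2R, whose mouse counterpart silences its neighbours on the paternal copy, had 23, 35 and 12 counts against 1, 4 and 1 for IGF2R. Per kilobase AIRN had 13.2 ± 4.80 CPM (SD, n = 3), below KCNQ1OT1 in the mean. NNAT, GNG12-AS1 and CD81-AS1 lay above KCNQ1OT1, with means of 86.91, 37.74 and 35.35 against 29.28 CPM per kilobase. All other names in the pairs lay below it. NNAT, a paternally expressed proteolipid gene within the body of BLCAP, had 31, 47 and 51 counts against none for BLCAP. GNAS, which encodes a G protein subunit, had 50, 33 and 16 counts against 0, 0 and 2 for its antisense RNA. KCNQ1 was likewise above KCNQ1-AS1 in every library. The antisense name was the higher in every library for GNG12-AS1, CD81-AS1, MAGI2-AS3, MRPL23-AS1 and ZIM2-AS1, as for KCNQ1OT1 and AIRN.

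**Figure D4:**
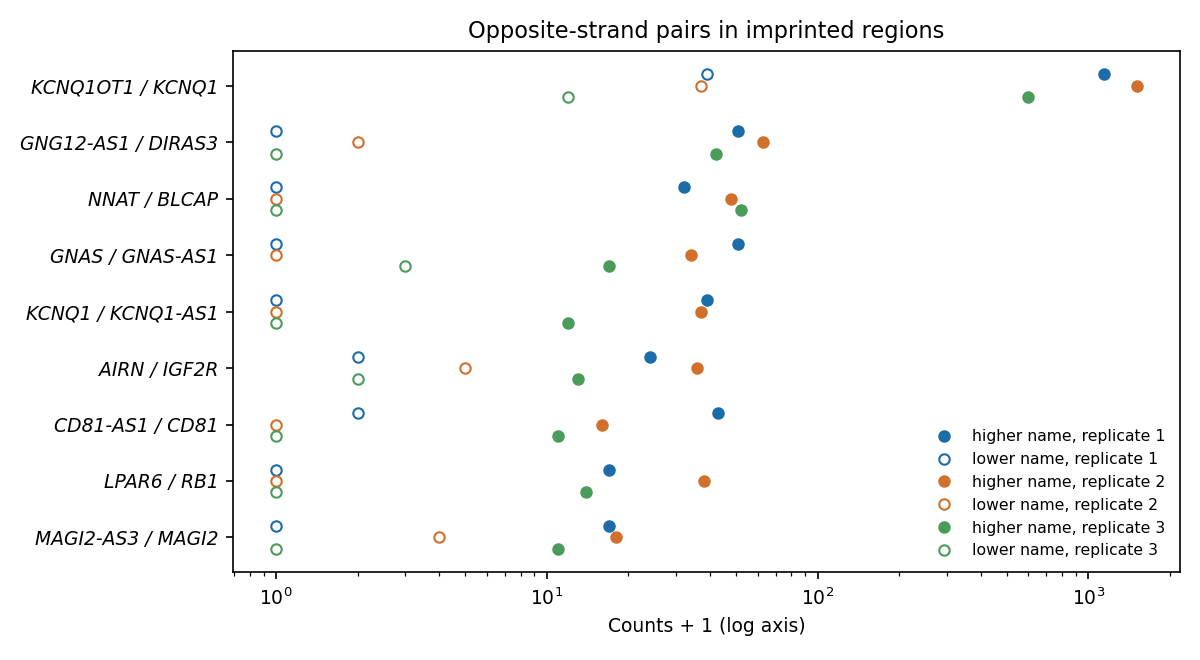
Counts plus 1, on a log axis, of both names in the 9 opposite-strand pairs whose higher name had at least 10 counts in every library (filled, higher name; open, lower name; colour, replicate). In each pair the filled points lie right of the open ones in all 3 libraries. That order is largely set by the choice of pairs and by naming the higher from mean CPM in these same libraries. KCNQ1OT1 and KCNQ1 are the only pair with both at 10 counts or more throughout.

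Among the 71 imprinted or neighbouring genes outside the set, 38 had a count (53.5%, against 54.7% of all names). Of the 71, 6 reached 10 counts in all 3 libraries (8.45%, against 9.68% of all names). Of those 6, 3 passed edgeR's test, where 45.8% of all tested genes did. ZNF597, a zinc finger gene, had 22, 83 and 12 counts and was highest in replicate 2 (edgeR, adjusted p = 1.45e-11, and 0.734 without replicate 2). NNAT was highest in replicate 3 at 168 CPM, against 70.9 and 108 CPM in replicates 1 and 2 (edgeR, adjusted p = 0.00216, but 0.0850 without replicate 1 and 0.0846 without replicate 3). GNAS was highest in replicate 1 with an adjusted p of 0.0310 in edgeR's fit, which became 0.387 without replicate 1 and 0.243 without replicate 3. The median CPM of the 71 was 0.762, against 1.10 over all names. INPP5F, an inositol phosphatase gene, had 178, 200.5 and 161.5 CPM, AIRN 52.6, 80.7 and 39.6 CPM and ZNF264 48, 25.4 and 33.0 CPM, and none of these 3 passed, with adjusted p of 0.553, 0.111 and 0.292 in edgeR's fit.

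The other clusters lay on both sides of the 54.7% of all names that had any count. At 7q32 each of the 6 listed genes was counted in 1 or more libraries, and at 7q21 3 of 5 were. At 15q11 5 of 12 were, at 19q13 3 of 8, at 14q32 2 of 7, and in the IGF2 and H19 list 1 of 8. In the 15q11 list MKRN3, a ring finger gene whose loss causes early puberty, led with 6, 7 and 15 counts, ahead of NPAP1 with 6, 9 and 2. In the 14q32 list RTL1, a retrotransposon-derived gene opposite a row of microRNAs, had 0, 0 and 3 counts. In the 7q21 list TFPI2, a protease inhibitor gene, had 7, 23 and 4 counts and CASD1, a sialic acid acetyltransferase gene, 1, 4 and 1. COPG2IT1, transcribed from within COPG2 beside MEST, had 20, 72 and 4 counts, and like MEST it was highest in replicate 2 and lowest in replicate 3.

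Genes that work with the set were read from lists of partners, to be set against the 54.7% of all names that had a count. Of 29 genes that set, keep or read imprints, 22 had a count and the median was 3.84 CPM, against 1.10 over all names. Of the 2 tested 1 passed, where 45.8% of all tested genes did: NFYC, a subunit of the CCAAT-binding factor NF-Y, had 654, 429 and 567 CPM (edgeR, adjusted p = 0.000177, and 0.378 without replicate 2) and its partner NFYB 36.6, 55.3 and 75.8 CPM (edgeR, adjusted p = 0.134). The exons of NFYC share 279 bases with NFYC-AS1 on the other strand. DNMT1, the maintenance methyltransferase, had 1, 0 and 3 counts, CTCF 2, 1 and 2, TRIM28 4, 0 and 1 and ZFP57 none. Of 10 related channel, beta subunit and anchor genes of KCNQ1, 8 had a count, with a median of 3.94 CPM. The beta subunit gene KCNE2 had 9, 6 and 9 counts and KCNE1 0, 0 and 1, and AKAP9, the anchor that ties kinase to the channel, had 73.2, 80.7 and 36.3 CPM (edgeR, adjusted p = 0.0764, and 0.0495 without replicate 1).

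Of 7 cyclin-dependent kinase inhibitor genes, CDKN1C among them, 5 had a count, against 54.7% of all names, with a median of 15.5 CPM. The 2 tested were not of the CDKN1 family. CDKN2B had 103, 355 and 122 CPM and was highest in replicate 2 (edgeR, adjusted p = 4.69e-16, and 0.702 without replicate 2), and CDKN2C had 77.7, 53.0 and 49.4 CPM (edgeR, adjusted p = 0.312). CDKN1A had no count and CDKN1B had 17, 9 and 4. In the insulin-like growth factor axis 9 of 16 genes had a count, against the same 54.7%, with a median of 1.14 CPM. IGF2BP3, an RNA-binding protein gene named for IGF2 mRNA, had 117, 171 and 82.4 CPM (edgeR, adjusted p = 0.00914, and 0.397 without replicate 2), and IGF1 had 36.6, 34.6 and 46.1 CPM (edgeR, adjusted p = 0.779). IGFBP1, IGFBP2, IGFBP3, IGFBP4 and IGFBP6 had no count. Of 9 spliceosomal snRNP protein genes, made up of SNRPN, other Sm protein genes and SNRPB2, whose product is no Sm protein, 7 had a count, with a median of 4.57 CPM. SNRPD3 had 41.2, 48.4 and 49.4 CPM (edgeR, adjusted p = 0.868), and SNRPB, the close relative of SNRPN, had 6, 0 and 0 counts. The exons of IGF2BP3 and SNRPD3 overlap those of MALSU1 and GUCD1 on the other strand, over 1521 and 321 bases. Those of IGF1, 8.122 kb in all, overlap HELLPAR on the other strand over 6693 bases.

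The 5 names nearest to KCNQ1OT1 by Euclidean distance of log2(CPM + 1) over the 3 libraries were LOC100129434, LGALS8, LCORL, NIFK-AS1 and C6orf201, at distances from 0.444 to 0.597. LGALS8, a galectin gene, had 2041, 2854 and 2076 CPM and LCORL, a transcription factor gene, 2041, 2957 and 2261 CPM in replicates 1, 2 and 3. Both were highest in replicate 2, as KCNQ1OT1 was, but lowest in replicate 1.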

How the data were processed

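The authors deposited 1 table of whole-number counts per gene symbol for each of 3 HEK293 libraries. Per the submitters' processing notes reads were handled with Trimmomatic, with TopHat2, whose version is written as 2.2.5, and with HTSeq 0.11.2 on hg38. None of the sources used here gives the gene annotation, the strand option or the read layout. The 5 summary lines entered neither library sizes nor tests. All other values were computed from the deposited counts: CPM per TMM effective library size (edgeR 4.0.16, R 4.3.3), and per kilobase of merged exon in GENCODE release 29 on GRCh38, to which 90.3% of names were matched, 23899 by name and 24 by an older symbol. It may differ from the annotation used for counting. Overlaps came from bedtools 2.31.1.

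With 1 condition, a quasi-likelihood contrast was not possible. A gene entered the test with 10 or more counts in all 3 libraries. The test was edgeR's generalised linear model at dispersion 0 with an intercept alone, its deviance set against chi-square, with Benjamini and Hochberg's adjustment and a threshold of 0.05; the script was tested on simulated data. The 10 genes and the 13 gene lists were chosen with earlier results of these data known. From each list every gene with at least 10 counts in every library, or else its 2 highest, was named; other names are partners or were chosen after their values were seen. Of the list genes, 2 (SNHG14 and PWAR6) are not analysed here. The replicate number came from the labels. At this depth 1 count equals 2.29, 2.31 and 3.30 CPM in replicates 1, 2 and 3.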

Additional observations from a re-analysis of the deposited data

How the results depend on the processing

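The mean of KCNQ1OT1 ranged from 2415 to 2984 CPM when each replicate was left out, and from 26.3 to 32.6 CPM per kilobase. It was 54.7 per 1000000 of all records, summary lines included, a different scale; DESeq2 1.42.0 size factors, total counts and leaving out the most abundant gene moved it by less than 1 SD. The count of genes that varied between replicates, 1175, was 2914 of 14482 with no filter, 0 of 2564 against a negative binomial null at edgeR's common dispersion and 263 to 1093 with a replicate left out. Against that null the adjusted p of KCNQ1OT1 was 0.988 and that of KCNQ1 0.933, by construction, since the dispersion was estimated from these libraries; KCNQ1OT1 passed under every other setting run, from 4.40e-38 to 3.44e-06 in edgeR's fit. KCNQ1 did not pass without a filter, at 0.0642, or by a Pearson statistic, at 0.0534. The log2 ratio of KCNQ1OT1 to KCNQ1 per kilobase was 0.53 by longest transcript and 0.78 to 1.21 with a replicate left out. The lower bound of the log2 ratio to CDKN1C, 3.18 on average, became 5.77 with a pseudocount of 0.5 counts, which is no bound, and ranged from 2.90 to 3.56 with a replicate left out. The number of the 10 genes passing the count filter was 2 under every filter and left-out replicate. No paired analysis was possible because the libraries form 1 group.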
